A study of Mus musculus with 6 samples.

Results

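The genes described here are 10 genes of BMP and TGF-beta signaling and of the endocardial cushions, taken by symbol from the raw count table, where all 10 were found among 54532 genes. They are the BMP ligands *Bmp2*, *Bmp4*, *Bmp5* and *Bmp7*, the TGF-beta ligands *Tgfb1* and *Tgfb2*, and *Snai1*, *Snai2*, *Twist1* and *Sox9*, transcription factors of mesenchymal cells. Their RNA was measured by RNA-seq in E9.5 mouse hearts, with 3 libraries from *Smyd1-KO* and 3 from WT embryos. *Smyd1-KO* embryos are homozygous for a mutated allele of *Smyd1*, a histone methyltransferase gene of heart and skeletal muscle. The allele is a germline one that needs no Cre, so all cells of the embryo carry it, and the mice came from a *Smyd1*+/- stock. The sample titles do not state whether a library holds 1 heart or a pool, and each library is called a heart here. Each library holds RNA of whole heart tissue, in which fewer cells of a type and less RNA per cell cannot be told apart. The labels name neither litters nor a breeding background, so the *P*-values measure the spread between these hearts.

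BMPs and TGF-betas are secreted dimers that bind pairs of type I and type II serine/threonine kinase receptors, which phosphorylate SMAD proteins that then enter the nucleus with SMAD4. In the heart of this age, BMP2 from the atrioventricular myocardium and TGFB2 from the cushion region signal to the endocardium, part of which loses its cell junctions and moves into the cardiac jelly. This epithelial-mesenchymal transition (EMT) fills the cushions from which valves and septa form, and the SNAI and TWIST factors and SOX9 act in the new mesenchyme. The same factors are also used by neural crest and pharyngeal arch mesenchyme beside the heart, so that a dissected heart can hold their RNA from more than 1 source.

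None of the 10 genes met the criteria of a call between the genotypes. These were an adjusted *P* under 0.05 with edgeR's quasi-likelihood test together with a log2 fold change of 0.5 or more in either direction, which 4.28% of the 19372 tested genes met. At an unadjusted *P* under 0.05, which 25.1% of tested genes reached, *Tgfb2* was lower and *Snai2* and *Sox9* were higher in *Smyd1-KO* hearts. DESeq2 called 2 of the 10, *Tgfb2* as lower (DESeq2 adjusted *P*=0.0191) and *Snai2* as higher (DESeq2 adjusted *P*=0.0126). Over all genes, DESeq2 called 1748 of the 33106 that it tested. Those include low-count genes that the edgeR filter left out, so the share called is not a like background for the 10 genes. The hearts of the 2 genotypes did not overlap for 1 of the 10 genes, *Tgfb2*, whereas 31.3% of tested genes showed such a separation. The median log2 fold change was -0.07 over the 10 genes and 0.00 over all tested genes. All 10 genes passed the filter on low counts, with 603 to 13552 counts per heart.

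Total counts per heart ran from 48627825 to 64217529, and the biological coefficient of variation between hearts was 22.5%. *Smyd1* itself gave 101, 222 and 206 CPM in *Smyd1-KO* against 414, 379 and 270 CPM in WT hearts, so its RNA was lower but not absent in the hearts labelled *Smyd1-KO*. *Smyd1* was not called (log2 fold change -1.01, edgeR adjusted *P*=0.0973), although DESeq2 called it. CPM are counts scaled to library size after TMM normalization, and values of single hearts are given in the order of heart 1, 2 and 3. *Smyd1-KO* heart 1 had the lowest summed CPM over 10 cardiomyocyte genes, 8723. WT heart 3 was next with 11249, and the remaining hearts had 17532 to 19324. *Smyd1-KO* heart 1 also stood apart in its summed CPM over 9 neural crest genes, with 793 against 157 to 279.6 in the other 5 hearts. Results that rest on *Smyd1-KO* heart 1 are given with and without it.

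Promoter sequence is shown for *Tgfb2*, the gene that separated the genotypes, for its paralog *Tgfb1*, which did not, and for *Snai1*, as 1 of the mesenchymal factors. The windows are the 250 bases before the transcription start in RefSeq on GRCm38.p6, 5' to 3' on the strand of the gene, and 6 of the 10 genes had an entry (*Bmp4*, *Bmp5*, *Tgfb1*, *Tgfb2*, *Snai1* and *Twist1*). Capitals mark matches on either strand to the E-box CANNTG, read by SNAI and TWIST proteins among others, to the SMAD-binding letters CAGAC, and to ACGTG, the core read by hypoxia-inducible factors. ACGTG overlaps the E-box where the letters are CACGTG.
Tgfb2, chr1:186705990-186706239, reverse strand: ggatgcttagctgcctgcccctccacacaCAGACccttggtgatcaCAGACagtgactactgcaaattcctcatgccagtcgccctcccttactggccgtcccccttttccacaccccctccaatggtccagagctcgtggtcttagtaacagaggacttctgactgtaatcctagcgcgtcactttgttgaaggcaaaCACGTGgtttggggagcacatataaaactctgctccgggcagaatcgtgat
Tgfb1, chr7:25686752-25687001, forward strand: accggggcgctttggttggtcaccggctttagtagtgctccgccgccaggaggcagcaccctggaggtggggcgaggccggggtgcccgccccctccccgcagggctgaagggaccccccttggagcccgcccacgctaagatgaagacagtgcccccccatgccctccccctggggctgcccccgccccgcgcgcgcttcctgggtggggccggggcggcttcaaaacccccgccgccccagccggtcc
Snai1, chr2:167537945-167538194, forward strand: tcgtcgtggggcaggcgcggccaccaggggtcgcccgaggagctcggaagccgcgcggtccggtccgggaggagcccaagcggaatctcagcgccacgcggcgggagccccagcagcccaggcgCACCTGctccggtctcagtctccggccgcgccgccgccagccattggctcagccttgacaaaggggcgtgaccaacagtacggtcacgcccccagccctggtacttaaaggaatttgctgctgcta
The *Tgfb2* window held 2 CAGAC matches and 1 E-box of the form CACGTG, which is also an ACGTG match on both strands. The *Tgfb1* window, with 75.2% G and C bases against 53.6% for *Tgfb2*, held none of the 3 motifs. The *Snai1* window held 1 E-box, CACCTG. The windows of *Bmp4*, *Bmp5* and *Twist1*, genes in which the genotypes overlapped, held matches too. *Bmp4* had 3 E-boxes, CACGTG among them, and 2 ACGTG matches, *Bmp5* 1 CAGAC match, and *Twist1* 1 CAGAC and 1 ACGTG match. Among all 32851 windows, 66.2% held an E-box, 42.2% CAGAC and 16.6% ACGTG, so E-box and CAGAC matches are common. All these matches describe letters without showing that a factor binds.

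None of the 4 BMP ligand genes passed the test by edgeR or DESeq2 or at an unadjusted *P* under 0.05, and for each of them the genotypes overlapped. *Bmp2* (ENSMUSG00000027358, chromosome 2 of GRCm38, 133552159 to 133562885), the myocardial ligand needed for cushion EMT, gave 34.0, 38.6 and 72.6 CPM in *Smyd1-KO* against 58.6, 50.5 and 41.3 CPM in WT hearts. *Smyd1-KO* hearts thus held both the lowest and the highest value, on either side of all WT hearts. The means were 48.4 ± 21.1 CPM and 50.2 ± 8.67 CPM (SD, n=3), and the log2 fold change was -0.05 (95% interval -0.72 to 0.62, edgeR adjusted *P*=0.934).

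*Bmp4* (ENSMUSG00000021835, chromosome 14, 46383520 to 46390669), a ligand of the outflow tract and the second heart field, gave 55.1, 69.8 and 77.5 CPM in *Smyd1-KO* against 59.1, 61.5 and 62.4 CPM in WT hearts. The WT hearts agreed to within a coefficient of variation of 2.82%, the lowest among the 10 genes, against 16.9% in *Smyd1-KO* hearts, which lay on both sides of them. With a log2 fold change of 0.14 (95% interval -0.15 to 0.44, edgeR adjusted *P*=0.511), the interval ran from 0.903-fold to 1.35-fold. Without *Smyd1-KO* heart 1, both other *Smyd1-KO* hearts were above all WT hearts at a log2 fold change of 0.27 (edgeR adjusted *P*=0.0841).

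*Bmp5* (ENSMUSG00000032179, chromosome 9, 75775364 to 75900310) and *Bmp7* (ENSMUSG00000008999, chromosome 2, 172868012 to 172940321) encode closely related ligands of the myocardium and of neighboring epithelia, which act together in the cushions. *Bmp5* gave 32.6, 51.1 and 57.5 CPM in *Smyd1-KO* against 50.4, 53.1 and 45.8 CPM in WT hearts. *Bmp7*, the BMP ligand gene with the highest level, gave 123, 219 and 204 CPM in *Smyd1-KO* against 189.9, 189.9 and 129 CPM in WT hearts. For both genes the *Smyd1-KO* values enclosed the WT values, with heart 1 as the lowest of all 6 hearts. The log2 fold changes were -0.08 for *Bmp5* (95% interval -0.54 to 0.38, edgeR adjusted *P*=0.835) and 0.10 for *Bmp7* (95% interval -0.46 to 0.67, edgeR adjusted *P*=0.823). Part of the *Bmp5* exons, 1878 bases, overlaps the antisense gene *Gm26903*, which had 3 to 36 counts per heart.

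**Figure D1:**
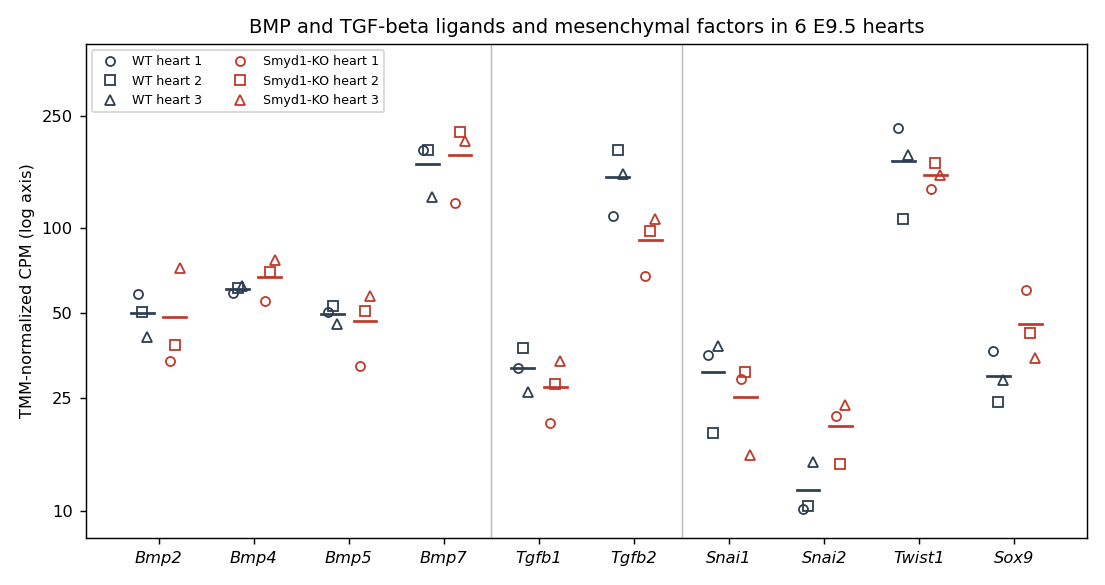
TMM-normalized CPM on a log axis for each of the 10 genes, with 1 symbol per heart (WT dark, *Smyd1-KO* red, shape for the heart number) and a bar at the mean of 3 hearts. *Tgfb2* is the gene in which all *Smyd1-KO* hearts (67.6 to 108 CPM) lie under all WT hearts (110.3 to 190.0 CPM), and *Smyd1-KO* heart 1 is the lowest heart for all 6 ligands.

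The make-up of the BMP ligand RNA was also compared within each heart, after dividing CPM by the exonic length of each gene in kilobases (RPKM). The 4 ligands summed to 72.8, 109 and 120.0 RPKM in *Smyd1-KO* and to 103, 102 and 82.9 RPKM in WT hearts, so that the genotypes overlapped (exact permutation test, two-sided, *P*=0.8). *Bmp7* made up the largest share in all 6 hearts, 44.8 ± 4.46% in *Smyd1-KO* and 43.7 ± 4.31% in WT hearts (SD, n=3), followed by *Bmp4* with 30.3 ± 2.92% and 28.7 ± 4.24%. *Bmp2* held 13.4 ± 3.53% and 14.7 ± 1.22%. The share of *Bmp5* was lower in all *Smyd1-KO* hearts, at 11.1%, 11.6% and 11.9%, than in WT hearts, at 12.2%, 12.9% and 13.7%. This difference of -1.41 percentage points had the smallest *P* that 3 hearts against 3 allow (exact permutation test, two-sided, *P*=0.1, adjusted *P*=0.4 over 4 shares), so no share could pass 0.05.

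*Tgfb1* (ENSMUSG00000002603, chromosome 7, 25687002 to 25705077), the ligand of endothelial and blood cells, gave 20.4, 28.0 and 33.8 CPM in *Smyd1-KO* against 31.9, 37.6 and 26.3 CPM in WT hearts. The genotypes overlapped, and the log2 fold change was -0.22 (95% interval -0.70 to 0.26, edgeR adjusted *P*=0.545).

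*Tgfb2* (ENSMUSG00000039239), the TGF-beta ligand needed for normal cushions and outflow tract, is encoded on chromosome 1, 186622792 to 186705989, reverse strand. It gave 67.6, 98.1 and 108 CPM in *Smyd1-KO* against 110.3, 190.0 and 155 CPM in WT hearts. All *Smyd1-KO* hearts were below all WT hearts, by a narrow gap between *Smyd1-KO* heart 3 and WT heart 1. The means were 91.1 ± 20.9 CPM and 152 ± 40.0 CPM (SD, n=3), a ratio of 0.600 in the fit. The log2 fold change was -0.74 (SE 0.23, 95% interval -1.29 to -0.19, unadjusted *P*=0.0151, edgeR adjusted *P*=0.110) and ranged from -0.92 to -0.55 when 1 heart at a time was left out, with 0 calls in 6 fits. Without *Smyd1-KO* heart 1, which is low in cardiomyocyte markers, it was -0.56 (edgeR adjusted *P*=0.143). Leaving out a heart cannot make separated genotypes overlap, so the separation was not tested in this way. The summed cardiomyocyte markers of the 2 genotypes overlapped, at 8723 to 18108 CPM in *Smyd1-KO* and 11249 to 19324 CPM in WT hearts, as did those of 12 endothelial and endocardial genes, at 749 to 1098 CPM and 696 to 843 CPM. Whether cell make-up had a part in the *Tgfb2* values was not tested. The exons of *Tgfb2* share 124 bases with the antisense gene *Gm29491*, which had 5 to 31 counts per heart against 3286 or more for *Tgfb2*.

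*Smyd1-KO* heart 1 was the lowest of the 6 hearts for all 6 ligand genes. Over all tested genes this heart was the lowest for 20.6% and the highest for 20.3%. Leaving out the lowest *Smyd1-KO* heart is bound to raise the log2 fold change of each ligand, so the direction of this shift carries no information. Without it, the log2 fold changes were 0.15 for *Bmp2*, 0.13 for *Bmp5* and 0.32 for *Bmp7*, and none of the ligands was called. The log2 fold change of *Tgfb1* was -0.05 in place of -0.22. The signs of *Bmp2* and *Bmp5* differed from those with all hearts.

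**Figure D2:**
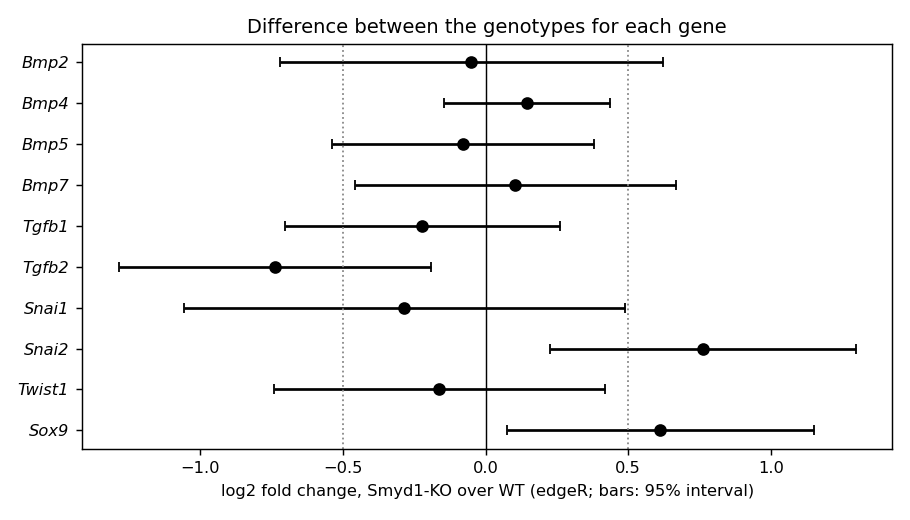
Log2 fold change of *Smyd1-KO* over WT for each gene by edgeR (points) with its 95% interval (bars), with dotted lines at -0.5 and 0.5. The intervals of *Tgfb2*, *Snai2* and *Sox9* leave out 0, from -1.29 to -0.19, from 0.23 to 1.30 and from 0.07 to 1.15, and none of the 3 passed the adjusted *P*.

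Among the mesenchymal factors, *Snai2* and *Sox9* were higher in *Smyd1-KO* hearts at an unadjusted *P* under 0.05 by edgeR, of which DESeq2 called *Snai2*, and *Snai1* and *Twist1* did not reach that level. *Snai1* (ENSMUSG00000042821, chromosome 2, 167538195 to 167542814), a zinc finger repressor of E-cadherin that drives EMT, gave 29.3, 30.9 and 15.7 CPM in *Smyd1-KO* against 35.5, 18.8 and 38.3 CPM in WT hearts. Each genotype had 1 heart well under its other hearts, and the log2 fold change was -0.29 (95% interval -1.06 to 0.49, edgeR adjusted *P*=0.633).

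*Snai2* (ENSMUSG00000022676), the relative of *Snai1* also known as *Slug*, lies on chromosome 16 from 14705852 to 14709385. It gave 21.7, 14.6 and 23.7 CPM in *Smyd1-KO* against 10.1, 10.4 and 14.9 CPM in WT hearts. *Smyd1-KO* hearts 1 and 3 were above all WT hearts, and *Smyd1-KO* heart 2 was just below WT heart 3. The means were 20.0 ± 4.76 CPM and 11.8 ± 2.68 CPM (SD, n=3). The log2 fold change was 0.76 (SE 0.23, 95% interval 0.23 to 1.30, unadjusted *P*=0.0118, edgeR adjusted *P*=0.0989), from 0.62 to 0.97 when 1 heart at a time was left out, with 0 calls in 6 fits. With 603 to 1352 counts per heart, *Snai2* had the lowest count of the 10 genes in a single heart, and its counting error is at most 4.07%.

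*Twist1* (ENSMUSG00000035799, chromosome 12, 33957671 to 33959829), a basic helix-loop-helix factor of cushion and arch mesenchyme, gave 138, 170.0 and 155 CPM in *Smyd1-KO* against 227, 108 and 182 CPM in WT hearts. The WT hearts spread more than the *Smyd1-KO* hearts and enclosed them, with coefficients of variation of 34.9% and 10.4%. The log2 fold change was -0.16 (95% interval -0.74 to 0.42, edgeR adjusted *P*=0.725).

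*Sox9* (ENSMUSG00000000567, chromosome 11, 112782224 to 112787760), which acts in the expansion and matrix production of cushion mesenchyme, gave 60.4, 42.5 and 34.6 CPM in *Smyd1-KO* against 36.8, 24.3 and 29.0 CPM in WT hearts. *Smyd1-KO* hearts 1 and 2 were above all WT hearts and heart 3 was below WT heart 1. The means were 45.9 ± 13.2 CPM and 30.0 ± 6.30 CPM (SD, n=3), for a log2 fold change of 0.61 (SE 0.23, unadjusted *P*=0.0310, edgeR adjusted *P*=0.155). The highest *Sox9* value came from *Smyd1-KO* heart 1, and without this heart the log2 fold change was 0.36 (edgeR adjusted *P*=0.251).

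The sum over 9 neural crest markers was 793, 279.6 and 157 CPM in *Smyd1-KO* against 246, 199 and 263 CPM in WT hearts, an order that was that of *Sox9* in *Smyd1-KO* but not in WT hearts. Taken singly, 5 of the 9 genes had log2 fold changes above 0 and 4 below it. Sums over 8 epicardial and proepicardial markers, at 159.5, 231 and 282 CPM in *Smyd1-KO* and 147, 125 and 156 CPM in WT hearts, were higher in all *Smyd1-KO* hearts. Those over 10 foregut and surface epithelium markers, at 852, 872 and 1212 CPM against 649.8, 620.3 and 682 CPM, were also higher in all *Smyd1-KO* hearts. Taken singly, 7 of the 8 epicardial and proepicardial genes had log2 fold changes above 0 and 1 below it. Of the 10 foregut and surface epithelium genes, 8 were above 0 and 2 below it. The sums over 10 pharyngeal and second heart field markers overlapped, at 354, 337 and 111.5 CPM in *Smyd1-KO* against 164.5, 285 and 282 CPM in WT hearts. None of these markers was at 0 in all hearts. Sums over 10 genes of primitive red blood cells were 24.4, 278 and 158 CPM in *Smyd1-KO* and 747, 997 and 959 CPM in WT hearts, lower in all *Smyd1-KO* hearts. Their part in the values of *Snai2* and *Sox9* was not tested.

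**Figure D3:**
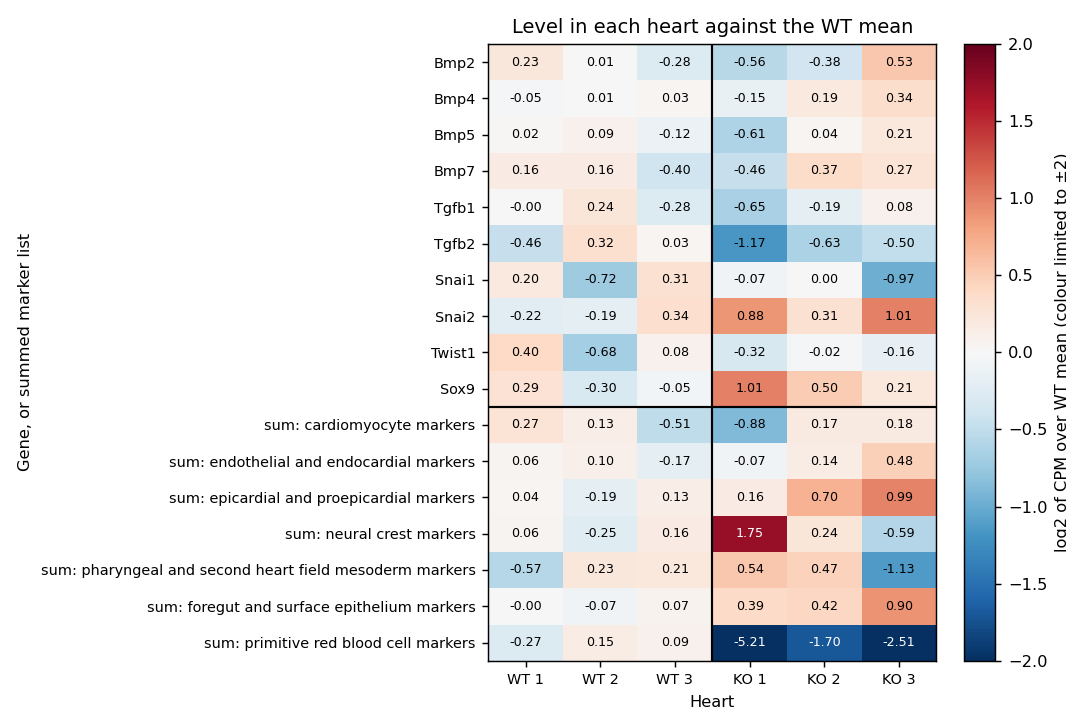
Log2 of the CPM of each heart over the mean of the WT hearts, for the 10 genes (upper rows) and for the summed CPM of 7 marker lists (lower rows), with each value printed in its cell, KO for *Smyd1-KO*, and colours limited to ±2. *Smyd1-KO* heart 1 is at -1.17 for *Tgfb2*, 1.01 for *Sox9*, -0.88 for the cardiomyocyte sum and 1.75 for the neural crest sum.

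Ratios of related genes within a heart do not depend on the scaling between hearts. The RPKM ratio of *Tgfb1* to *Tgfb2* was 0.346, 0.328 and 0.361 in *Smyd1-KO* and 0.332, 0.227 and 0.194 in WT hearts, so WT heart 1 lay among the *Smyd1-KO* hearts. On the log2 scale the ratio was higher by 0.49 in *Smyd1-KO* hearts (exact permutation test, two-sided, *P*=0.2, adjusted *P*=0.4 over 4 ratios). The ratio of *Snai1* to *Snai2* was 1.69, 2.63 and 0.829 in *Smyd1-KO* and 4.38, 2.26 and 3.21 in WT hearts, a difference of -1.03 on the log2 scale (exact permutation test, two-sided, *P*=0.2, adjusted *P*=0.4). *Smyd1-KO* heart 3 was the heart with more *Snai2* than *Snai1* per length. The ratios of *Bmp2* to *Bmp4* and of *Bmp5* to *Bmp7* differed by -0.25 and -0.20 on the log2 scale, with overlapping hearts (exact permutation test, two-sided, *P*=0.4 for each, adjusted *P*=0.4). The smallest *P* possible was 0.1.

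**Figure D4:**
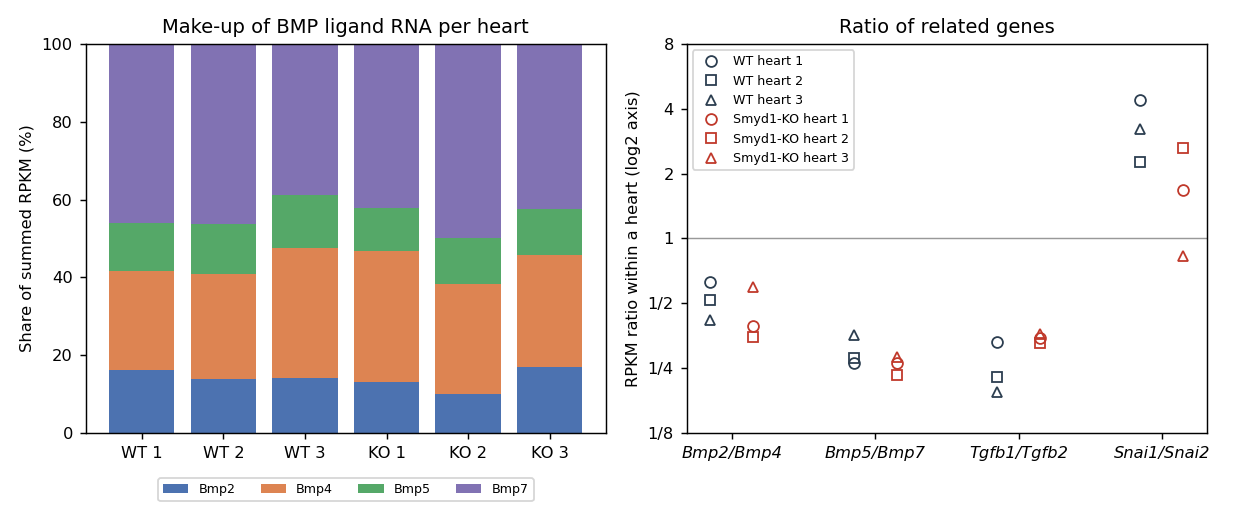
Left, share of each ligand in the summed RPKM of the 4 BMP ligand genes in each heart (stacked bars, percent). Right, RPKM ratio of 2 related genes within each heart (log2 axis, 1 symbol per heart). *Bmp7* is the largest share in all 6 hearts, and the *Tgfb1*/*Tgfb2* ratio lies between 0.328 and 0.361 in *Smyd1-KO* and between 0.194 and 0.332 in WT hearts.

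Per length, *Twist1* had the highest level of the 10 genes in both genotypes, with 106 ± 37.1 RPKM in WT and 94.7 ± 9.88 RPKM in *Smyd1-KO* hearts (SD, n=3). *Bmp7* was next, with 42.2 ± 8.75 RPKM and 45.4 ± 12.9 RPKM, and in WT hearts neither of these overlapped the next gene in order. *Bmp4* (27.1 RPKM), *Tgfb2* (26.2 RPKM), *Snai1* (19.0 RPKM), *Bmp2* (14.1 RPKM) and *Bmp5* (12.4 RPKM) followed in WT hearts, and each of them overlapped the next, whereas *Bmp5* did not overlap *Sox9*. *Sox9* (7.26 RPKM), *Tgfb1* (6.34 RPKM) and *Snai2* (5.83 RPKM) were lowest in WT hearts, also overlapping each other. In *Smyd1-KO* hearts the order was the same down to *Sox9*, with *Tgfb2* at 15.7 RPKM, no longer overlapping *Bmp4* at 30.0 RPKM, and *Snai2* at 9.89 RPKM was above *Tgfb1* at 5.43 RPKM without overlap.

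The genes around the ligands were read from 7 role lists of 131 genes, of which 125 passed the filter on low counts. Of these, 3 rose and 3 fell in *Smyd1-KO* hearts, against 2.86% of all tested genes called higher and 1.42% called lower. The median log2 fold change was 0.17 in these genes and 0.00 over all tested genes. Without the filter on low counts, DESeq2 called 18 of the 131 as higher and 8 as lower. Over all 33106 genes that it tested, DESeq2 called 1124 as higher and 624 as lower. Those 33106 include low-count genes that the edgeR filter left out, whereas most role-list genes passed it. The shares called by DESeq2 are therefore not alike in their genes. With the replicate number as a block, edgeR called 0 of the role-list genes. The count of 6 depended on single hearts, with 13, 0 and 2 genes called without *Smyd1-KO* hearts 1, 2 and 3 and 2, 0 and 1 without WT hearts 1, 2 and 3. Of the 6 genes, *Col2a1* was called in 0 of these 6 fits, *Acvrl1* in 1 (without *Smyd1-KO* heart 1), *Ltbp3* in 2 (without *Smyd1-KO* heart 1 or WT heart 1), *Lrrc32* in 2 (without *Smyd1-KO* heart 1 or 3), *Ltbp4* in 2 (without *Smyd1-KO* heart 1 or WT heart 3) and *Mmp14* in 3 (without *Smyd1-KO* heart 1 or 3 or WT heart 1).

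Among 16 receptors and co-receptors, 1 rose, 0 fell and 15 did not pass, with a median log2 fold change of 0.16, and DESeq2 called 2, both as higher. *Acvrl1* encodes ALK1, an endothelial type I receptor of the family. It gave 19.7, 18.2 and 21.1 CPM in *Smyd1-KO* against 10.8, 11.9 and 12.6 CPM in WT hearts, without overlap, and rose by a log2 fold change of 0.74 (edgeR adjusted *P*=0.0192). The genotypes did not overlap for 4 of the 16 genes, against 31.3% of all tested genes. *Bmpr1a*, the type I receptor for BMP2 and BMP4, was at 201 ± 4.99 CPM in *Smyd1-KO* against 159.7 ± 9.14 CPM in WT hearts (log2 fold change 0.33, edgeR adjusted *P*=0.0560). *Cldn5*, a tight junction gene of endothelial cells, rose 1.99-fold (edgeR adjusted *P*=0.0320), the 1 of 12 endothelial and endocardial markers that was called (in 2 of 6 fits without 1 heart), and their median log2 fold change was 0.21. At an unadjusted *P* under 0.05, reached by 25.1% of all tested genes, 5 of the 12 were higher and 1 was lower. The lower one was *Npr3*, a gene of the endocardium (log2 fold change -0.52, edgeR adjusted *P*=0.0567). DESeq2 called 2 of the 12 as higher and 1 as lower. The part of the endothelium in the *Acvrl1* values was not tested.

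Of 24 extracellular regulators, 2 rose, 1 fell and 21 did not pass, with a median log2 fold change of 0.31, and DESeq2 called 6 as higher and 2 as lower. *Ltbp3*, which encodes a matrix protein that binds TGF-beta in its latent form, gave 13.2, 12.8 and 11.7 CPM in *Smyd1-KO* against 4.35, 6.88 and 5.63 CPM in WT hearts, and rose by a log2 fold change of 1.16 (SE 0.19, edgeR adjusted *P*=0.0208). *Lrrc32* encodes GARP, which holds latent TGF-beta at the cell surface. It gave 12.4, 11.6 and 20.1 CPM in *Smyd1-KO* against 5.47, 5.31 and 3.47 CPM in WT hearts, for a log2 fold change of 1.63 (SE 0.28, edgeR adjusted *P*=0.0227). *Ltbp4*, another binding protein, gave 21.6, 20.3 and 18.7 CPM in *Smyd1-KO* against 34.7, 43.0 and 29.8 CPM in WT hearts, and fell with a log2 fold change of -0.83 (SE 0.15, edgeR adjusted *P*=0.0261). In all 3 genes the genotypes did not overlap, which held for 8 of the 24 genes of this list and for 31.3% of all tested genes.

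Of 8 SMAD genes, 0 were called by edgeR or DESeq2. At an unadjusted *P* under 0.05, reached by 25.1% of all tested genes, 2 were higher. *Smad4*, the shared partner of the pathway, had a log2 fold change of 0.29 (edgeR adjusted *P*=0.105). *Smad7*, a feedback inhibitor induced by the pathway, had 0.43 (edgeR adjusted *P*=0.174) and was called without *Smyd1-KO* heart 1 at 0.59 (edgeR adjusted *P*=0.0341). The SMAD median was 0.08.

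Of 21 transcriptional targets of BMP and TGF-beta signaling, edgeR called 0, DESeq2 called 1 as higher and 1 as lower, and the median log2 fold change was -0.03. At an unadjusted *P* under 0.05, reached by 25.1% of all tested genes, 2 were higher and 3 lower. *Tbx2*, a BMP target that marks the atrioventricular canal, was at 58.8 ± 6.75 CPM in *Smyd1-KO* against 80.1 ± 9.37 CPM in WT hearts (SD, n=3; log2 fold change -0.45, edgeR adjusted *P*=0.0763). *Tgfbi*, a matrix gene induced by TGF-beta, was at 31.3 ± 7.82 CPM and 20.5 ± 3.05 CPM (log2 fold change 0.61, edgeR adjusted *P*=0.121).

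Of 21 other ligands of the family 15 were tested. edgeR called 0 and DESeq2 called 3, all as higher. Of the tested ligands, 3 were higher and 3 lower at an unadjusted *P* under 0.05, which 25.1% of all tested genes reached. *Gdf11* (log2 fold change -0.41, edgeR adjusted *P*=0.0640) and *Bmp1*, which despite its name encodes a metalloprotease (log2 fold change -0.46, edgeR adjusted *P*=0.0841), had the lowest *P*-values, and the median was 0.05.

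Of 15 other cushion EMT factors, edgeR called 0, and DESeq2 called 2 as higher and 2 as lower, with a median of 0.22. At an unadjusted *P* under 0.05, reached by 25.1% of all tested genes, 3 were higher and 3 lower. *Snai3*, the third SNAI gene, gave 3.64, 7.68 and 7.20 CPM in *Smyd1-KO* against 2.85, 1.76 and 1.17 CPM in WT hearts, without overlap (log2 fold change 1.68, edgeR adjusted *P*=0.0585). The genotypes did not overlap for 5 of the 15 genes, against 31.3% of all tested genes. Without *Smyd1-KO* heart 1 edgeR called *Snai3* (log2 fold change 1.95, edgeR adjusted *P*=0.0236), as it did with no filter on low counts (edgeR adjusted *P*=0.0269). *Nfatc1*, a factor of the endocardium that stays on the cushion surface, gave 17.5, 25.7 and 27.2 CPM in *Smyd1-KO* against 49.8, 43.8 and 32.1 CPM in WT hearts (log2 fold change -0.83, edgeR adjusted *P*=0.0687), and was called with no filter (edgeR adjusted *P*=0.0339).

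Of 26 genes of cushion matrix and mesenchyme, 0 rose and 2 fell, with a median of 0.23, and DESeq2 called 4 as higher and 3 as lower. *Col2a1*, a collagen gene that SOX9 is known to activate, gave 429.8, 575 and 445 CPM in *Smyd1-KO* against 780.3, 1038 and 714 CPM in WT hearts, and fell with a log2 fold change of -0.80 (edgeR adjusted *P*=0.0466), while *Sox9* was higher at an unadjusted *P* only. *Mmp14*, a membrane metalloprotease, gave 97.6, 86.7 and 109 CPM in *Smyd1-KO* against 142, 158 and 159 CPM in WT hearts, and fell with a log2 fold change of -0.64 (edgeR adjusted *P*=0.0199). At an unadjusted *P* under 0.05, reached by 25.1% of all tested genes, 8 genes of the list were higher and 3 lower. *Postn*, a matrix gene of valve mesenchyme with the largest log2 fold change of the list (3.25, edgeR adjusted *P*=0.128) and singled out after its values were seen, ranged from 27.0 to 618 CPM among *Smyd1-KO* hearts, with the highest value in heart 3.

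**Figure D5:**
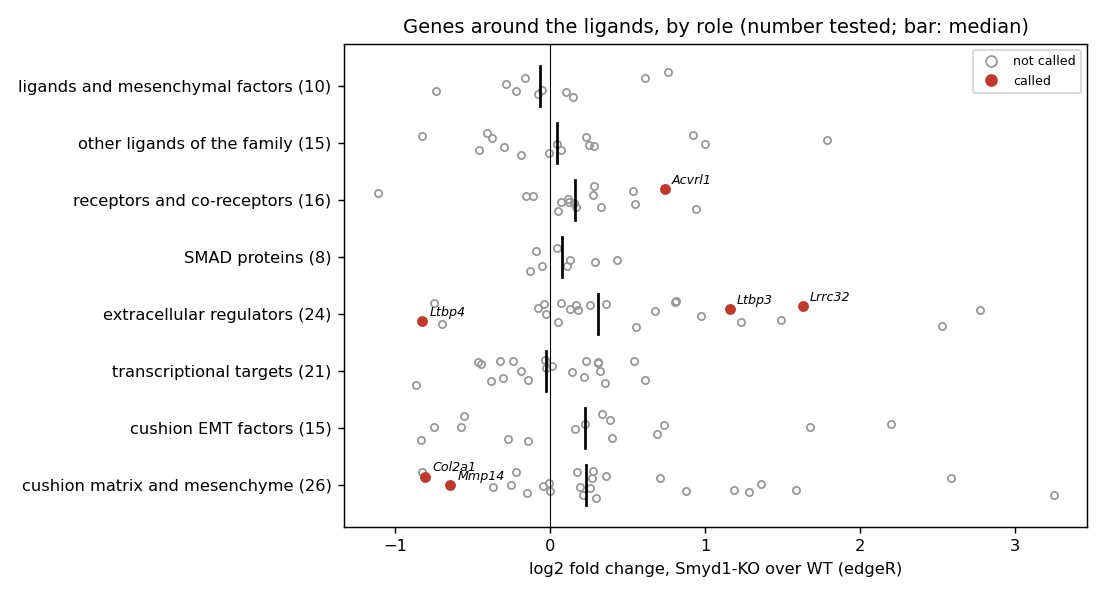
Log2 fold change of *Smyd1-KO* over WT by edgeR for the 10 genes and for the tested genes of 7 role lists, 1 point per gene, with red points for called genes and a black bar at the median of each list. Called genes are *Acvrl1* (0.74), *Ltbp3* (1.16), *Lrrc32* (1.63), *Ltbp4* (-0.83), *Col2a1* (-0.80) and *Mmp14* (-0.64), and none is among the 10.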

How the data were processed

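RNA of E9.5 hearts, in 3 *Smyd1-KO* and 3 WT libraries, was sequenced by the authors after poly A selection, as paired-end reads, and aligned to mm10 with STAR. The authors deposited raw counts per Ensembl gene, without normalization, which were used here, and a table of scaled counts, which was not used. The submitters' processing notes name STAR and DESeq2. The counting tool, annotation release and strand setting are not given in the sources used here, so reads of antisense partners cannot be told apart. The counting errors given cover counting only, since no molecular identifiers are named.

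The comparison used edgeR 4.0.16 in R 4.3.3, with filterByExpr, TMM factors, a quasi-likelihood fit and *P*-values adjusted by Benjamini-Hochberg over 19372 genes. The limits of a call were 0.05 for the adjusted *P* and 0.5 for the log2 fold change in either direction, as in the study's methods. The 95% intervals use the standard error and degrees of freedom of that fit. RPKM were computed from TMM CPM and exonic lengths of GENCODE M21 (GRCm38). DESeq2 1.42.0 was an alternative. Role and marker lists were matched by symbol, 3 genes through RefSeq synonyms. The genes, lists and tests were chosen with earlier results of these data known. Named from each list were the called genes and, where under 2 were called, the 2 with the smallest *P*; 1 such gene is not reported here. Steps were tested on simulated data. Plots were drawn with matplotlib 3.10.9.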

Additional observations from a re-analysis of the deposited data

How the results depend on the processing

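None of the 10 genes was called by edgeR with RLE or upper-quartile factors, with no filter or at least 10 counts in every heart, without mitochondrially encoded and haemoglobin genes, with no limit on the fold change, with glmTreat, with the replicate block or with any heart left out, and DESeq2 called 2. Over all genes edgeR called 830, DESeq2 1748, glmTreat 154, the replicate block 59, and the fits without 1 heart 97 to 1256. In the 7 role lists edgeR called 6, DESeq2 26, the fit with no filter 12, glmTreat 0, the replicate block 0, and the fits without 1 heart 0 to 13. The cause was not tested.

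When 1 heart at a time was left out, the sign changed for *Bmp2* (-0.46 to 0.15), *Bmp5* (-0.25 to 0.13), *Bmp7* (-0.0558 to 0.32) and *Twist1* (-0.41 to 0.0946) on the log2 scale, and for the difference in the shares of *Bmp2* (-3.13 to 0.389), *Bmp4* (-0.0747 to 4.03) and *Bmp7* (-1.46 to 2.47) in percentage points. The labels do not say whether hearts of the same number share more than a number. Correlations of their deviations from the genotype means were -0.216, -0.0538 and -0.182. These cannot decide the question, because deviations from a mean of so few hearts depend on each other. Under the replicate block the adjusted *P* by edgeR was 0.0977 for *Tgfb2*, 0.146 for *Snai2* and 0.155 for *Sox9*.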

Other observations

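Of the 7 lists of cell type markers, the one with the most calls was that of primitive red blood cells, where *Alas2* and *Gata1* fell (log2 fold changes of -2.19 and -3.14, edgeR adjusted *P*=0.0428 and 0.0445). Each was called in 1 of 6 fits without 1 heart, that without *Smyd1-KO* heart 1, and in neither the fit with the replicate block (edgeR adjusted *P*=0.0969 and 0.0977) nor that with glmTreat. All 10 genes of this list were lower at an unadjusted *P* under 0.05 and separated the genotypes, with a median of -2.65. Over all tested genes, 25.1% reached that *P* in either direction and 31.3% separated the genotypes.

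The other lists held 0 calls by edgeR with filterByExpr and all 6 hearts, apart from *Cldn5* in the endothelial and endocardial list. Medians were -0.10 for 10 cardiomyocyte genes, 0.47 for 8 epicardial and proepicardial genes, 0.52 for 9 neural crest genes, 0.30 for 10 pharyngeal and second heart field genes and 0.34 for 10 foregut and surface epithelium genes. At an unadjusted *P* under 0.05, reached by 25.1% of all tested genes, these lists held 2, 2, 2, 0 and 3 genes. DESeq2 called 1, 2, 1, 0 and 3. The smallest *P*-values in each belonged to *Nppa* (1.44) and *Myh6* (-0.71), *Upk3b* (1.33) and *Wt1* (1.11), *Ets1* (0.52) and *Foxd3* (3.72), *Fgf10* (0.27) and *Tlx1* (-0.74), and *Nkx2-1* (-2.56) and *Krt18* (0.68), as log2 fold changes by edgeR. *Nppa*, a chamber myocardium gene, and *Upk3b* and *Wt1*, genes of the mesothelium, were called without *Smyd1-KO* heart 1, as was *Krt18*, and these 4 were also called with no filter on low counts, as were *Ets1*, *Npr3* and *Nkx2-1*. *Nkx2-1* was further called with a minimum of 10 counts in every heart (edgeR adjusted *P*=0.0482) and without *Smyd1-KO* heart 2 (edgeR adjusted *P*=0.0178). The log2 fold change of *Foxd3*, 3.72 with all hearts, was 0.84 without *Smyd1-KO* heart 1 and 1.74 with the replicate block.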
